A study of Bos taurus with 15 samples.

Results

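The 10 genes described here form the core of the integrated stress response: the transcription factors ATF4, DDIT3 (CHOP), ATF3, ATF5 and CEBPB, the target genes CHAC1, ASNS, SESN2 and TRIB3, and the feedback gene PPP1R15A (GADD34). They were followed by sequencing poly(A) RNA from day 7 blastocysts of cattle (Bos taurus), with 5 libraries in each of 3 groups. The members were named by gene symbol, and they were selected on results of these same libraries in which the cultured groups differed from the in vivo group. Their differences between cultured and in vivo blastocysts are therefore given as descriptions without a test, and only the comparison of the cultured groups with each other, which did not enter that choice, is tested. All 10 symbols were found among the 17259 genes of the table, and 9 of them were among the 11578 genes that passed the filter on low counts. ATF5 did not pass it.

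The automatic group came from zygotes whose cumulus cells, the follicle cells around the egg, were stripped by an automated procedure. The manual group came from zygotes stripped by hand. Both then spent 7 days in SOF, a culture medium modelled on oviduct fluid, and are called in vitro here when pooled. The in vivo group was collected from animals. The labels speak of 5 blastocysts per group, as many as there are libraries, but leave unsaid whether each library is a separate embryo and whether cultures, donors or days differed within a group. Any p-value here measures no more than library-to-library spread, part of which may be technical.

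As background, the integrated stress response begins when any of 4 kinases, EIF2AK1 to EIF2AK4, phosphorylates the translation initiation factor eIF2 on its alpha subunit. General protein synthesis then slows, while the messenger RNA of ATF4 is translated more. ATF4 protein switches on genes of amino acid supply and, with its partner CHOP, genes that end the response or promote cell death. Since much of the control over ATF4 lies in its translation, its messenger RNA level is not a measure of ATF4 protein, and neither protein nor eIF2 phosphorylation was measured here.

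Library totals were 17.96 to 41.97 M counts (M, mega). Replicates 2 and 4 of the automatic group, replicate 2 of the manual group and replicates 2 and 4 of the in vivo group stood apart. They had 6977 to 8547 genes at 10 or more counts, while the remaining 10 libraries had 9900 to 12611. They are called low-detection libraries, and the fold changes of the members are also given without them where they move. The summed level of 9 trophectoderm markers, which define the outer epithelium of the blastocyst, was 4638 to 14563 CPM in automatic, 8228.5 to 34755 CPM in manual and 13590 to 31555 CPM in in vivo libraries. These markers as a sum were thus found in every library, without a reference level against which to judge the label of blastocyst. Of these 9 markers, 1 was higher and 4 were lower in vitro at an edgeR unadjusted p under 0.05 (0 at an adjusted p), and the median sums were 9505 CPM in automatic and 11517 CPM in manual, against 23962 CPM in in vivo libraries. Of 5 epiblast markers, which define the pluripotent inner cells, 0 were higher and 2 lower by the same threshold, with summed levels of 221 to 752 CPM in automatic, 203 to 674 CPM in manual and 493 to 1082 CPM in in vivo libraries. Markers of the hypoblast, another inner lineage, had 0 higher and 0 lower of 3 tested. Their median sums were 300 CPM in automatic, 294 CPM in manual and 292 CPM in in vivo libraries. Oocyte markers had 0 higher and 0 lower of 4 tested. Their median sums were 756, 740 and 333 CPM in the same order, with overlapping ranges. The summed level of 14 cumulus and granulosa markers was 2.92 to 21.8, 9.95 to 89.6 and 13.0 to 45.3 CPM in the same order of groups, with FOXL2 at 0 throughout, PTX3 and NR5A1 also at 0 in automatic, INHA in manual, and INHA, NR5A1, GREM1, VCAN and CD44 in in vivo libraries. A list of 7 markers of stroma and of oviduct or uterine epithelium lay mostly higher in culture, with a summed level of 41.9 to 172 CPM in automatic and 29.7 to 465 CPM in manual, against 0.0457 to 35.4 CPM in in vivo libraries. FOXJ1 was at 0 in automatic and in vivo libraries and POSTN at 0 in vivo. The part of these markers in the results below was not tested. In such bulk libraries, fewer cells of a type and less RNA per cell cannot be told apart.

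CHAC1, an enzyme that breaks down glutathione, was the member most nearly restricted to cultured blastocysts. It stood at 27.9, 31.4, 15.2, 13.8 and 33.0 CPM in automatic 1 to 5 (CPM, counts scaled to a common library size with TMM factors, as in every CPM here). Manual 1 to 5 had 28.9, 9.0, 11.6, 33.7 and 6.21 CPM. In vivo libraries had no CHAC1 count apart from in vivo 3, with 5 counts or 0.102 CPM. Every cultured library thus lay above every in vivo library. Pooled over libraries, 6493 counts in vitro made 22.3 CPM, and 5 counts in vivo made 0.0322 CPM (95% exact Poisson interval 0.0105 to 0.0752). The ratio was 694 (297 to 2137, counting error only). The fitted log2 fold change was 9.49 ± 1.55 (SE), and without in vivo 3, where no in vivo count is left, it was 12.20; such values depend on how counts near 0 are treated.

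ASNS, asparagine synthetase, was the other member without overlap between the cultured and in vivo libraries. Automatic 1 to 5 had 766, 273, 427, 129.9 and 1102 CPM. Manual 1 to 5 had 703, 285, 344, 207 and 228 CPM. In vivo 1 to 5 had 107, 2.98, 86.1, 89.4 and 69.0 CPM. The lowest cultured library, automatic 4, stood closest to the highest in vivo library, in vivo 1. In vitro over in vivo, the log2 fold change of ASNS was 2.62 ± 0.65, and 2.61 ± 0.46 without the low-detection libraries. CHAC1 and ASNS were 2 of 9 tested members with all in vitro libraries above all in vivo libraries, an arrangement seen in 0.199% of all tested genes. The opposite arrangement was seen in 0.276% of genes and in 0 members.

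**Figure D1:**
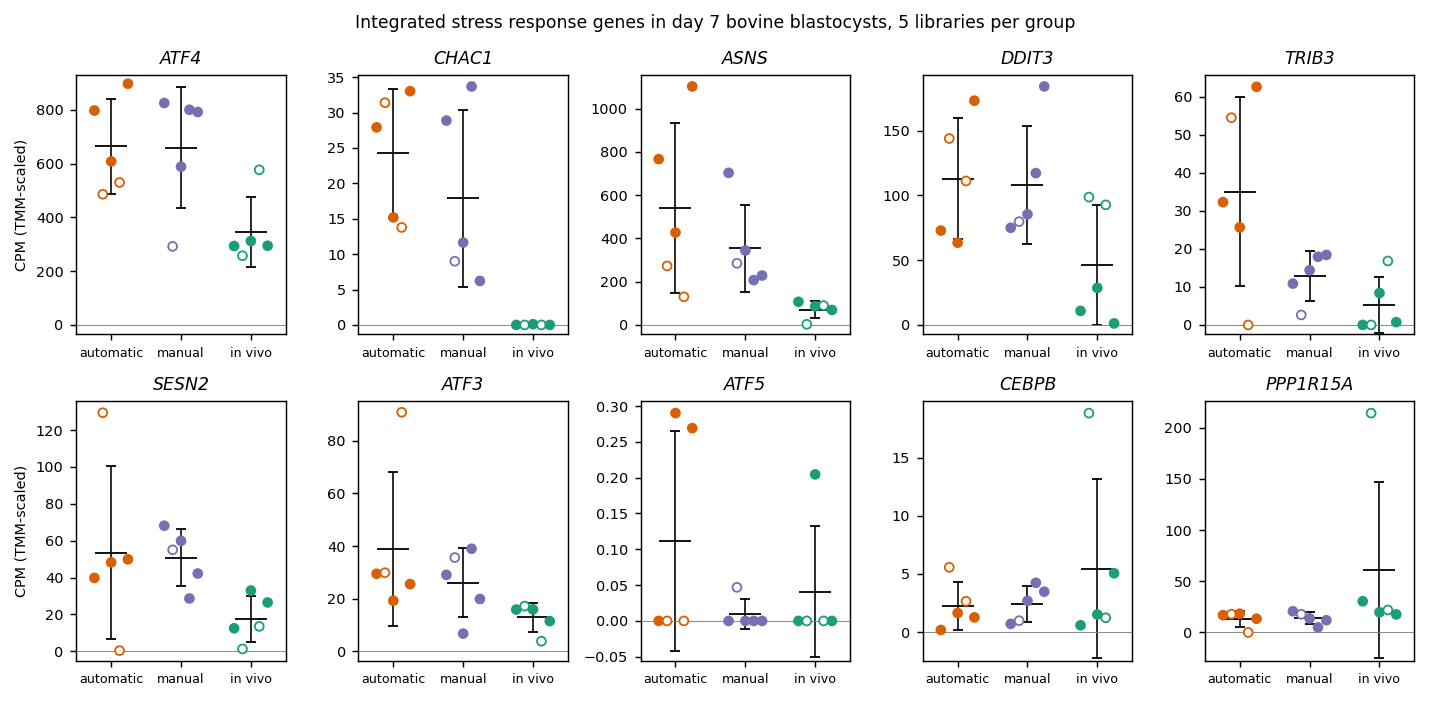
Level of each of the 10 genes in CPM (TMM-scaled, linear axis, a scale of its own per gene) in automatic, manual and in vivo blastocysts. Points are libraries, replicates 1 to 5 from left to right, with open points for the low-detection libraries; the long line is the group mean and the bars are ± 1 SD (n = 5). CHAC1 and ASNS are the genes in which no cultured library falls within the in vivo range.

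ATF4, the transcription factor at the centre of the response, was abundant in every group. Its level was 797, 486, 608, 529 and 897 CPM in automatic 1 to 5, and 825, 292, 588, 799.9 and 792 CPM in manual 1 to 5. In vivo 1 to 5 had 293, 257, 312, 577 and 294 CPM. The means were 663 ± 177 CPM in automatic, 659 ± 226 CPM in manual and 347 ± 130.2 CPM in in vivo libraries (SD, n = 5 each). The groups overlapped through low-detection libraries: in vivo 4 lay above automatic 2, automatic 4 and manual 2, and manual 2 lay below 4 of the 5 in vivo libraries. In vitro over in vivo, the log2 fold change was 0.93 ± 0.30 with all libraries and 1.34 ± 0.24 without the low-detection ones.

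DDIT3 encodes CHOP, the factor that ATF4 induces and that promotes cell death when stress lasts. It stood at 72.9, 144, 63.5, 111 and 173 CPM in automatic and at 75.0, 79.8, 85.4, 117 and 184 CPM in manual libraries. In vivo 1, 3 and 5 had 10.8, 28.6 and 1.14 CPM, below every cultured library, while the low-detection libraries in vivo 2 and in vivo 4 had 98.7 and 92.7 CPM, within the cultured range. In vitro over in vivo, DDIT3 had a log2 fold change of 1.25 ± 0.69 with all libraries and 3.02 ± 0.79 without the low-detection libraries.

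ATF3, a stress-induced repressor and partner of ATF4, was at 29.4, 29.8, 19.2, 90.9 and 25.5 CPM in automatic libraries. Manual libraries had 29.0, 35.6, 6.70, 39.0 and 19.8 CPM, and in vivo libraries 15.8, 17.1, 15.9, 3.80 and 11.4 CPM. Of the 10 cultured libraries, manual 3 alone lay within the in vivo range. ATF3 had a log2 fold change of 1.31 ± 0.72, and 0.75 ± 0.57 without the low-detection libraries, among them automatic 4, which held the highest value, and in vivo 4, which held the lowest.

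CEBPB, a dimer partner of ATF4, did not share this direction. It had 0.188, 5.57, 1.64, 2.65 and 1.27 CPM in automatic libraries and 0.706, 0.984, 2.69, 4.24 and 3.47 CPM in manual libraries. In vivo libraries had 0.589, 18.8, 1.51, 1.23 and 5.06 CPM. The log2 fold change in vitro over in vivo, −1.22 ± 1.13, rested on in vivo 2: without that library it was 0.16. ATF5, a relative of ATF4 linked to mitochondrial stress, was near the limit of detection. It had 12 counts in automatic 3, 10 in automatic 5, 1 in manual 2 and 10 in in vivo 3, and 0 in the other libraries, so no difference between groups was detectable at this depth.

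TRIB3, a pseudokinase that ATF4 and CHOP induce and that restrains them, was uneven in culture. Automatic libraries had 32.3, 54.5, 25.7, 0 and 62.7 CPM, manual libraries 10.9, 2.62, 14.4, 17.9 and 18.4 CPM, and in vivo libraries 0, 0, 8.41, 16.8 and 0.733 CPM. In automatic 4, a low-detection library, 3 counts would make 0.166 CPM. As a ceiling for the 0, that level covers counting error only, not loss of transcripts before sequencing. The other 4 automatic libraries lay above every manual and in vivo library. The log2 fold change in vitro over in vivo was 2.03 ± 1.5 with all libraries, 3.19 without in vivo 4 and 3.05 ± 1.26 without the low-detection libraries.

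SESN2, sestrin 2, senses leucine and restrains the growth kinase complex mTORC1. It was at 39.8, 129, 48.2, 0.332 and 49.9 CPM in automatic libraries, with automatic 4 again at the bottom. Manual libraries had 68.1, 55.0, 59.9, 28.6 and 42.2 CPM, and in vivo libraries 12.4, 1.22, 32.9, 13.5 and 26.5 CPM. Of the cultured libraries, automatic 4 and manual 4 alone lay below the highest in vivo library. The log2 fold change was 1.59 ± 0.89, and 1.01 ± 0.43 without the low-detection libraries.

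PPP1R15A, the stress-induced subunit that directs a phosphatase to eIF2 and so ends the response, was not higher in culture. It had 16.9, 17.9, 18.4, 0 and 13.4 CPM in automatic libraries and 20.7, 17.8, 13.8, 5.0 and 12.0 CPM in manual libraries. In vivo libraries had 30.4, 214, 19.7, 22 and 17.6 CPM. The log2 fold change in vitro over in vivo was −2.16 ± 0.91, and −0.71 without in vivo 2, the low-detection library at 214 CPM; it was −0.65 ± 0.54 without all low-detection libraries.

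Each denudation group was also set against the in vivo group alone. Both comparisons use the same 5 in vivo libraries, so they are not independent. On the log2 scale, automatic over in vivo and manual over in vivo were 0.94 and 0.93 for ATF4, 9.71 and 9.27 for CHAC1, and 2.93 and 2.32 for ASNS. The values were 1.28 and 1.22 for DDIT3, 1.63 and 1.55 for SESN2, and 1.6 and 1.02 for ATF3. TRIB3 had 2.75 and 1.31. CEBPB had −1.26 and −1.17, and PPP1R15A −2.19 and −2.13. In the quasi-likelihood test of edgeR over all 11578 genes, an adjusted p under 0.05 was met by 0.0173% of genes in vitro against in vivo (2 genes), by 0.0173% in automatic against in vivo (2 genes) and by 0% in manual against in vivo (0 genes, with 392 at an unadjusted p under 0.05). CHAC1 was the member among them, in vitro and in automatic, and since that contrast served to choose the members, nothing is read from it.

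Set against ATF4 within the same library, CHAC1 separated the groups without reference to scaling between libraries. CHAC1 had 24.99 to 64.7 counts per 1000 ATF4 counts in automatic libraries (median 35.0), 7.85 to 42.1 in manual libraries (median 30.9) and 0 to 0.328 in in vivo libraries (median 0). In vivo 4, a low-detection library, held 12608 ATF4 counts and 0 CHAC1 counts. Its ATF4 level was above that of 3 cultured libraries, which were low-detection libraries too. Outside the low-detection libraries, in vivo 1 held 12940 ATF4 counts and 0 CHAC1 counts. In vivo 3 held 15239 and 5, and in vivo 5 held 8020 and 0. For ASNS the ranges overlapped, at 245 to 1229 counts per 1000 ATF4 counts in automatic (median 703), 259 to 976 in manual (median 585) and 11.6 to 365 in in vivo libraries (median 235).

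**Figure D2:**
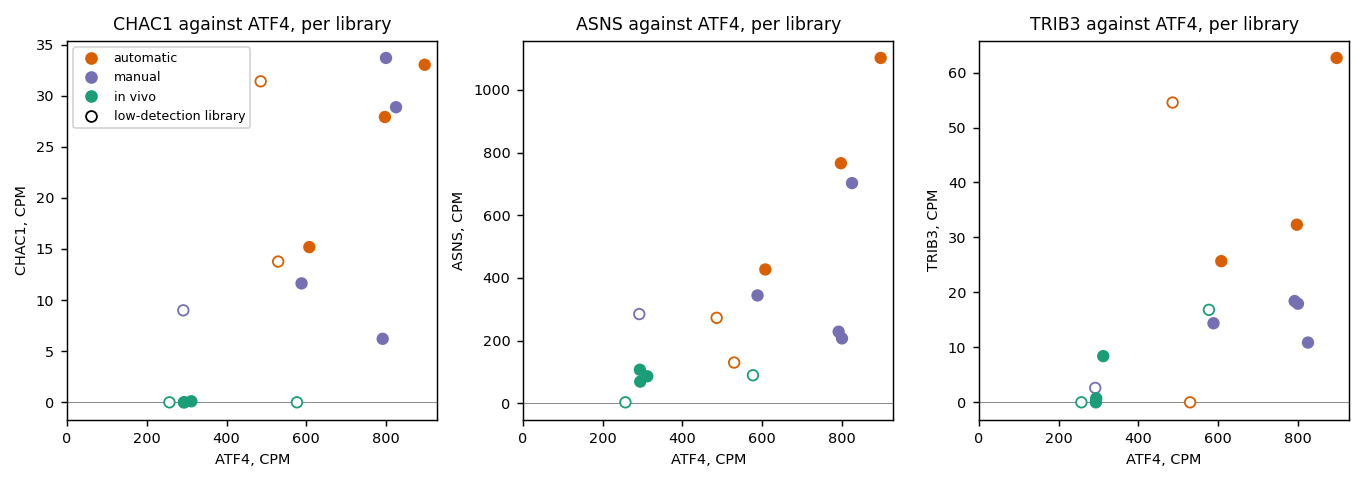
CHAC1, ASNS and TRIB3 (CPM, vertical axes) against ATF4 (CPM, horizontal axis) in each of the 15 libraries, coloured by group, with open points for low-detection libraries. In vivo 4, the open in vivo point at 577 CPM of ATF4, lies among the cultured libraries for ATF4 and at 0 for CHAC1.

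Libraries of a group varied least in ATF4. The SD of log2 CPM within groups was 0.50 for ATF4, lower than in all but 3.36% of tested genes, against a median of 2.21 over all tested genes. These ranks were not matched for level, and ATF4 was abundant in every group. It was 0.78 for CHAC1, where 4 in vivo libraries share a value of 0, and 0.93 for ATF3. ASNS, DDIT3 and CEBPB had 1.49, 1.59 and 1.59. SESN2 and PPP1R15A, with 2.20 and 2.28, lay near the median gene, and TRIB3, with 3.31, varied more than 89.6% of genes.

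The comparison of automatic with manual denudation asks whether the way of removing cumulus cells left a trace in these genes. No member differed beyond the spread between libraries. An adjusted p under 0.05 was met by 0 of 9 members and 0% of all genes in edgeR, and an unadjusted p under 0.05 by 0 of 9 members and 1.48% of all genes (171 genes). DESeq2 called 9 genes and limma-voom 0, none of them a member. No member had groups without overlap, an arrangement found in 0.665% of genes. Exact two-sided permutation of the 10 libraries gave p of 0.246 or more for every member, where 0.00794 is the smallest p this design allows, and adjusted values of 1.

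The intervals show how much of a difference could have been missed. ATF4 was bounded best, with a log2 fold change automatic over manual of 0.01 ± 0.34 (SE; 95% interval −0.69 to 0.71). For ASNS the value was 0.61 ± 0.66 (−0.77 to 1.99) and for CHAC1 0.44 ± 1.09 (−1.83 to 2.71). DDIT3 had 0.06 ± 0.75 (−1.51 to 1.63), ATF3 0.58 ± 0.78 (−1.06 to 2.22) and SESN2 0.08 ± 0.95 (−1.91 to 2.06). TRIB3, with the largest value of 1.45 ± 1.6, was bounded least (−1.91 to 4.80), its means being 35.0 ± 24.8 CPM in automatic and 12.9 ± 6.48 CPM in manual libraries. CEBPB had −0.10 ± 1.35 (−2.91 to 2.72) and PPP1R15A −0.06 ± 1.09 (−2.34 to 2.23). PPP1R15A had 0.08 when libraries were scaled by their totals. Without the low-detection libraries, ASNS was higher in automatic by 1.06 ± 0.43 (edgeR unadjusted p = 0.029, adjusted p = 1), which does not pass over all genes. The median over the 9 members was 0.08, beside −0.05 over all tested genes, with 7 values above 0.

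**Figure D3:**
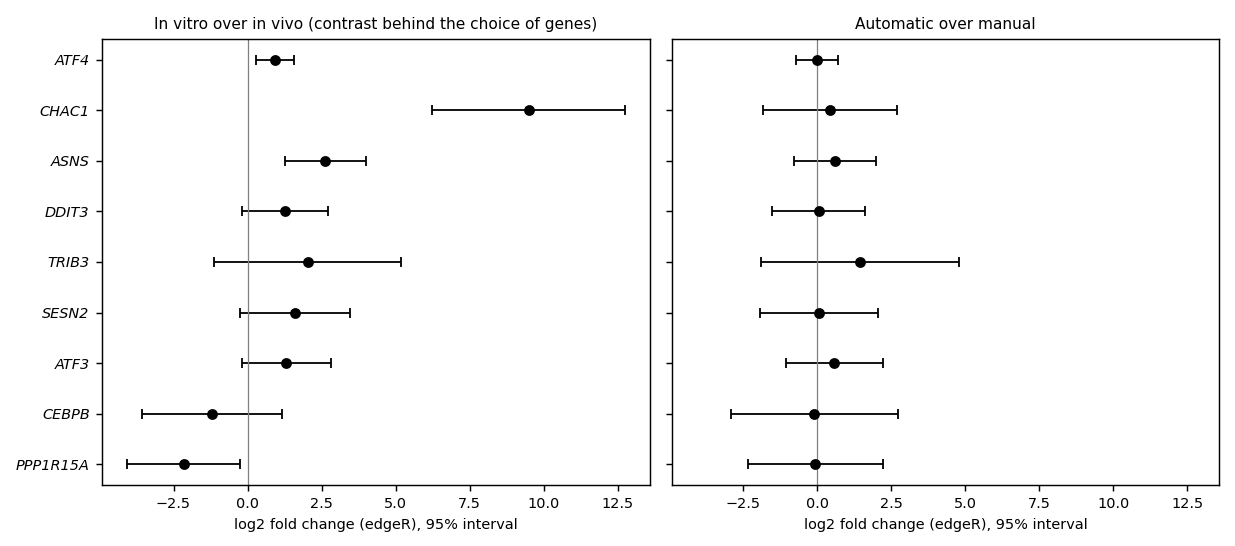
Fitted log2 fold changes from edgeR with 95% intervals for the 9 genes tested, in vitro over in vivo on the left and automatic over manual on the right, on a shared axis. The left panel is a description, since this contrast served to choose the genes; in the right panel every interval contains 0, from ATF4 (−0.69 to 0.71) to TRIB3 (−1.91 to 4.80).

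Within the 10 cultured libraries, ATF4 messenger RNA was set against each of 8 other members (log2 CPM, two-sided permutation tests, Benjamini-Hochberg adjustment over the 8). No relation passed. ATF4 with ASNS had Pearson's r = 0.460 (permutation p = 0.183, adjusted p = 0.564) and Spearman's rho = 0.503 (permutation p = 0.144). ATF4 with CHAC1 had r = 0.435 (permutation p = 0.212, adjusted p = 0.564) and rho = 0.552 (permutation p = 0.104). Without manual 2 and automatic 2, the libraries farthest from the median of ATF4, r was 0.610 for ASNS, 0.496 for CHAC1 and, at its highest, 0.683 for TRIB3 (exact permutation p = 0.0299, adjusted p = 0.216, n = 8). The same omission moved SESN2 from 0.0755 to r = 0.601 and PPP1R15A from 0.100 to r = 0.588 (adjusted permutation p = 0.216 for both, n = 8), while without all low-detection libraries their r was −0.241 and −0.189. With all 10 libraries, the relations other than ASNS and CHAC1 had r between −0.151 (ATF3) and 0.422 (TRIB3).

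Over all 15 libraries, where the difference between the groups is part of every correlation, the genes most like each leading member were described by Pearson's r of log2 CPM, without a test. For CHAC1 they were PYCR1, an enzyme of proline synthesis (0.898), ZNF786, a zinc finger protein (0.870), PSPH, which makes serine (0.860), RBM44, an RNA-binding protein (0.856), and MAEL, of the germline piRNA pathway (0.848). For ASNS they were DDIT4, an inhibitor of mTORC1 (0.930), DNAJC15 (0.922), the tryptophanyl-tRNA synthetase WARS1 (0.896), NUDT21 (0.896) and the initiation factor subunit EIF3J (0.893). For ATF4 they included NIPSNAP2 (0.785), the secreted factors FGF21 (0.782) and FGF9 (0.777), and NDRG1 (0.777). Among members, r was 0.728 between ATF4 and CHAC1, 0.712 between ATF4 and ASNS, and 0.758 between CHAC1 and ASNS, while ASNS and CEBPB ran opposite (−0.662).

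The wider pathway was described through 11 lists around these members. The lists were chosen with earlier results of these data known. Their counts and p-values in vitro against in vivo are therefore descriptions, not tests of the pathway. Across all tested genes, 2.46% were higher and 3.67% lower in vitro at an unadjusted p under 0.05, the median log2 fold change was −0.04 and 48.2% of values were above 0. No listed gene passed an adjusted p under 0.05 in any of the 4 comparisons. Scaling by library totals alone moved the median of all genes to 0.10. Values in brackets after a gene are its log2 fold change in vitro over in vivo ± SE, except where another comparison is named.

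Upstream, none of the 4 kinases that sense stress reached an unadjusted p under 0.05 in vitro against in vivo. EIF2AK1, activated by heme shortage, had 54.2 ± 32.9 CPM in automatic, 30.8 ± 13.9 in manual and 53.0 ± 25.7 in in vivo libraries (SD, n = 5), a log2 fold change in vitro over in vivo of −0.38 ± 0.59. EIF2AK3 (PERK), which senses unfolded protein in the endoplasmic reticulum, had −0.41 ± 1.40, and EIF2AK4 (GCN2), which senses uncharged tRNA, 0.25 ± 0.44. EIF2AK2 (PKR), activated by double-stranded RNA, was low throughout, at 0.349 ± 0.768 CPM in automatic, 1.06 ± 0.439 in manual and 0.0589 ± 0.132 in in vivo libraries. Manual libraries ranged from 0.522 to 1.53 CPM (135 counts over the group). Automatic libraries ranged from 0 to 1.72 CPM (65 counts) and in vivo libraries from 0 to 0.295 CPM. The log2 fold change of EIF2AK2 in vitro over in vivo, 3.21 ± 1.85, rests on 13 in vivo counts in 1 library. Of 9 kinases and regulators, 4 were higher and 5 lower, with 2 higher and 0 lower at an unadjusted p under 0.05. They were IMPACT, an inhibitor of GCN2 (1.75 ± 0.62; edgeR adjusted p = 0.591), and DNAJC3, an inhibitor of PERK and PKR (1.12 ± 0.46; edgeR adjusted p = 0.737). The median of the 9 was −0.38 with all libraries and 0.41 (5 higher, 4 lower) without the low-detection libraries. IMPACT averaged 79.5 ± 38.6 CPM in automatic, 58.4 ± 17.4 in manual and 20.2 ± 13.4 in in vivo libraries.

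The machinery that eIF2 phosphorylation acts on lay near the median of all genes. Of 8 eIF2 and eIF2B subunits, 5 were higher and 3 lower, with a median of 0.06 and none at an unadjusted p under 0.05 (0 passed in edgeR over all genes). Of 4 genes of the eIF2 phosphatase outside PPP1R15A, 3 were higher, with a median of 0.39. PPP1R15B, the constitutive counterpart of PPP1R15A, had 78.5 ± 38.2 CPM in automatic, 45.2 ± 29.3 in manual and 29.5 ± 11.5 in in vivo libraries, a log2 fold change of 1.01 ± 0.66. This direction was opposite to that of PPP1R15A, and the difference between these genes was not tested. Without the low-detection libraries, 1 subunit (EIF2S2) was higher and 0 lower at an edgeR unadjusted p under 0.05. Of the phosphatase genes, 2 (PPP1R15B and PPP1CB) were higher and 0 lower. In that fit 8.33% of all genes met the same threshold in either direction, and 0 genes of these lists passed an adjusted p under 0.05.

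Among 18 partners and relatives of ATF4 in the bZIP family, 12 were higher and 6 lower in vitro, with a median of 0.23. At an unadjusted p under 0.05, ATF1, a CREB relative (1.57 ± 0.54; edgeR adjusted p = 0.567), and NFE2L2, the antioxidant factor NRF2 (0.77 ± 0.36; edgeR adjusted p = 0.805), were higher and 0 were lower. CEBPG, with which ATF4 pairs on amino acid response genes, had 56.8 ± 49.5 CPM in automatic, 44.4 ± 21.5 in manual and 25.6 ± 36.1 in in vivo libraries, a log2 fold change of 0.97 ± 1.13. Without the low-detection libraries, 2 genes of this list (ATF1 and CEBPG) were higher and 0 lower at an edgeR unadjusted p under 0.05. In that fit 8.33% of all genes met this threshold in either direction, and 0 genes of the list passed an adjusted p under 0.05.

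Downstream lists lay further to the in vitro side. Of 25 tested targets of ATF4 and CHOP outside amino acid supply, 20 were higher and 5 lower, with a median of 0.73, and 5 were higher and 0 lower at an unadjusted p under 0.05. ERO1A, an oxidase of the endoplasmic reticulum, had 65.4 ± 35.2 CPM in automatic, 125 ± 66.0 in manual and 21.2 ± 10.9 in in vivo libraries (2.09 ± 0.56; edgeR adjusted p = 0.398). SQSTM1, an autophagy receptor, had 462 ± 122, 378 ± 147 and 178 ± 89.6 CPM in the same order (1.23 ± 0.35; edgeR adjusted p = 0.50). FGF21, a hormone induced by ATF4, had 0 counts in all in vivo libraries and counts in 3 automatic and 4 manual libraries. The cultured libraries without FGF21 counts were automatic 2, automatic 4 and manual 2, all low-detection libraries. Of 735 pooled counts in vitro, 216 came from manual 5. Pooled, the 2.53 CPM of FGF21 in vitro was 131-fold the level of 3 counts over the in vivo group, a bound that covers counting error only.

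Of 23 genes of amino acid synthesis, transport and tRNA charging, 20 were higher and 3 lower, with a median of 0.88, and 10 were higher and 0 lower at an unadjusted p under 0.05. PSPH had 199.9 ± 87.8 CPM in automatic, 149 ± 46.6 in manual and 4.85 ± 4.75 in in vivo libraries (5.15 ± 1.08; edgeR adjusted p = 0.191). PYCR1 had 38.8 ± 23.3, 27.7 ± 10.3 and 1.41 ± 2.24 CPM in the same order (4.53 ± 1.30; edgeR adjusted p = 0.520). SLC38A2, a transporter of neutral amino acids, had 483 ± 90.4, 460.5 ± 191 and 235 ± 65.0 CPM (1.01 ± 0.30; edgeR adjusted p = 0.534). Without the low-detection libraries 4.19% of all genes were higher at an unadjusted p under 0.05 and 0.0568% passed over all genes (7 of 12329). PSPH, PHGDH and PSAT1, the enzymes of serine synthesis, were 3 of those 7, and CHAC1 was another. PHGDH had 4.17 ± 0.51 there (edgeR adjusted p = 0.0105) but 1.02 ± 1.21 with all libraries (edgeR unadjusted p = 0.411). PSAT1 had 2.26 ± 0.32 there (edgeR adjusted p = 0.0310) but 0.76 ± 0.50 with all libraries (edgeR unadjusted p = 0.147).

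**Figure D4:**
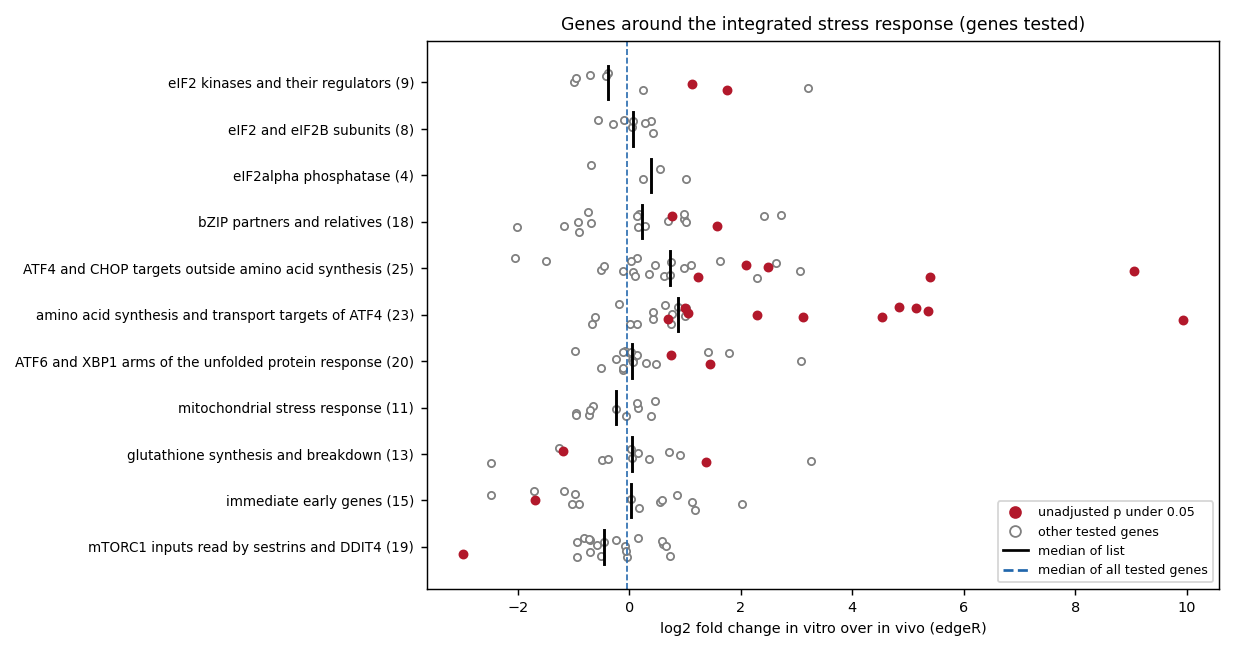
Fitted log2 fold changes in vitro over in vivo (horizontal axis, edgeR) of the tested genes of 11 lists around the 10 genes, each point a gene and the black line its list's median; filled points had an unadjusted p under 0.05 and the dashed line is the median of all tested genes (−0.04). The lists of ATF4 targets have medians of 0.73 and 0.88; the points furthest right, FGF21 and SLC7A11, have 0 counts in vivo, so their fitted values are not bounds.

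Neighbouring stress programmes had medians between −0.45 and 0.05 with all libraries. Of 20 genes of the ATF6 and XBP1 arms of the unfolded protein response, 13 were higher and 7 lower with a median of 0.05, and the chaperones DNAJB9 (1.45 ± 0.46; edgeR adjusted p = 0.553) and CANX (0.75 ± 0.28; edgeR adjusted p = 0.679) were higher at an unadjusted p under 0.05. This median joins unlike groups: automatic over in vivo had 8 higher and 12 lower (median −0.16), and manual over in vivo, with the same in vivo libraries, 16 higher and 4 lower (median 0.32). It was 0.25 with scaling by library totals, and 0.37 without the low-detection libraries, where 17 were higher and 3 lower, 4 of the higher ones at an unadjusted p under 0.05. Of 11 genes of the mitochondrial stress response, 4 were higher and 7 lower, with a median of −0.25 (−0.01 with scaling by library totals). A further list joined genes of glutathione synthesis and breakdown with glutathione peroxidases, glutathione reductase and the redox enzymes TXNRD1, HMOX1 and NQO1. It is thus wider than the substrate pathway of CHAC1. Of its 13 tested genes, 8 were higher and 5 lower with a median of 0.05. GSR, glutathione reductase, had 94.1 ± 47.2 CPM in automatic, 107 ± 63.3 in manual and 38.6 ± 25.5 in in vivo libraries (1.38 ± 0.55; edgeR adjusted p = 0.700). GPX1, glutathione peroxidase, ran the other way, with 346 ± 87.7, 362 ± 20.7 and 809 ± 392 CPM in the same order (−1.19 ± 0.28; edgeR adjusted p = 0.275).

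Of 15 immediate early genes, 8 were higher and 7 lower, and FOS was the gene with an unadjusted p under 0.05, at 22.9 ± 7.06 CPM in automatic, 44.2 ± 33.9 in manual and 104 ± 111 in in vivo libraries (−1.7 ± 0.61; edgeR adjusted p = 0.618). Of 19 genes of mTORC1, the complex that SESN2 and DDIT4 restrain, and of its inputs, 5 were higher and 14 lower. Their median was −0.45 (−0.05 with scaling by library totals). The list mixes parts of the complex with genes that activate it and genes that restrain it. Its counts therefore give no direction of mTORC1 activity. CASTOR1, an arginine sensor, had 2.46 ± 2.89, 2.96 ± 3.04 and 21.5 ± 23.8 CPM in the same order (−2.99 ± 1.42; edgeR adjusted p = 0.811). Without the low-detection libraries, GSR (0.75 ± 0.41), NFE2L2 (0.36 ± 0.36) and CASTOR1 (−0.56 ± 1.38) were no longer at an unadjusted p under 0.05. In that fit the immediate early genes had 1 higher and 2 lower at this threshold. The mTORC1 list had 1 higher and 1 lower.

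Between the denudation groups the same lists gave 0 genes past an adjusted p under 0.05. At an unadjusted p under 0.05 there was 1 of 159 listed genes outside the members, beside 1.48% of all genes. It was RRAGA, a GTPase that carries amino acid signals to mTORC1. RRAGA had 147 ± 95.3 CPM in automatic and 65.9 ± 32.1 CPM in manual libraries (log2 fold change automatic over manual 1.16 ± 0.45; edgeR adjusted p = 0.9999). Its highest library was the low-detection library automatic 4, at 316 CPM, and without the low-detection libraries RRAGA had 0.55 ± 0.37 (edgeR unadjusted p = 0.164). In that fit 4.08% of all genes and 11 of 162 listed genes outside the members were at an unadjusted p under 0.05 (5 higher and 6 lower in automatic), with 0 at an adjusted p. Amino acid genes had 18 values higher and 5 lower in automatic, with a median of 0.39. ATF4 and CHOP targets outside amino acid supply had 12 higher and 13 lower, with a median of −0.08 (0.03 with scaling by library totals), and the 9 kinases and regulators 5 higher and 4 lower, with a median of 0.43. Beside these, 47.1% of all tested genes were higher in automatic.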

How the data were processed

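The authors deposited estimated counts for each gene of 15 libraries in 1 table, as whole numbers without scaling. Per the submitters' processing notes the tools were FastQC, fastp and kallisto; no version or role is named. Transcript set, genome build and any use of molecular identifiers: not given in the sources used here. Coordinates and sequences are therefore not printed, levels are not compared between genes, and reads of similar transcripts may be divided with error. The table held 1 line without a gene name, which was left out. Same-group libraries differed by far more than sampling noise, the smallest chi-square over its degrees of freedom being 172.

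The 15 libraries were fitted jointly, with 1 mean for each of the groups, in edgeR 4.0.16 (R 4.3.3; TMM factors, filterByExpr, robust quasi-likelihood F test), after rounding, which changed no value. A call was an adjusted p (Benjamini-Hochberg, 11578 genes) under 0.05. SE is the absolute log2 fold change over the square root of F. CPM used TMM-scaled totals; log2 CPM used a prior count of 2. Counts were also run with DESeq2 1.42.0 and limma 3.58.1 (voom). Correlations used Python 3.11.15. The fit was also run on simulated data in which the spread between libraries was capped. That run does not show how the fit performs at the spread seen here. Intervals of pooled counts cover counting error only.

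The members and lists were chosen with earlier results of these data known. Named genes were the members, the kinases EIF2AK1 to EIF2AK4, PPP1R15B, CEBPG, called list genes, up to 3 list genes with the smallest unadjusted p under 0.05 in vitro against in vivo and 1 in automatic against manual, and the 5 genes with the highest correlation to CHAC1, ATF4 and ASNS, of which 1 is not reported here. PHGDH, PSAT1, SLC7A11 and the genes singled out among lists without the low-detection libraries were named after their values were seen. Of 173 listed symbols, 169 were in the table.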

Additional observations from a re-analysis of the deposited data

Results flagged for a closer look

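The gap of the highest or lowest library to its nearest neighbour was divided by the range of its group. Of 30 sets of 5 libraries (10 genes in 3 groups), 9 had a ratio above Dixon's critical value of 0.71. A chance rate of about 1 in 20 applies to normally distributed values. CPM with many values of 0 are not such values, so the count of 9 is a description. Where 1 library alone has counts, the ratio is 1 whatever the level. PPP1R15A and ATF5 were each set apart in 2 groups. PPP1R15A stood at 0 CPM in automatic 4 (next library 13.4 CPM) and at 214 CPM in in vivo 2 (next library 30.4 CPM). ATF3 in automatic 4 was at 90.9 CPM, with the next automatic library at 29.8 CPM. ATF4 in in vivo 4 was at 577 CPM, with the next in vivo library at 312 CPM. CEBPB in in vivo 2 was at 18.8 CPM, with the next in vivo library at 5.06 CPM. These 5 values belong to low-detection libraries.

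ASNS in manual 1, at 703 CPM against 344 CPM in the next manual library, came from a library of usual detection. The others rest on a few counts: CHAC1 at 0.102 CPM in in vivo 3, ATF5 at 0.205 CPM in the same library, and ATF5 at 0.0469 CPM in manual 2, each the lone library of its group with any count.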

How the results depend on the processing

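Counts of genes past an adjusted p under 0.05 moved with the tool and the libraries. For automatic against manual (0 genes) DESeq2 gave 9 and leaving out the low-detection libraries 1. For in vitro against in vivo (2 genes) library size scaling gave 0, DESeq2 87, voom 15, the replicate block 8 (all lower in vitro, CHAC1 not among them), adding the count of detected genes as a covariate 7, leaving out the low-detection libraries 7, and leaving out each library in turn 0 to 7. CHAC1 passed without automatic 4 and without manual 3 but in none of the other fits that left out 1 library. For automatic against in vivo (2 genes) library size gave 0, no filter 1, DESeq2 87, voom 9, the replicate block 7, leaving out the low-detection libraries 9, and leaving out 1 library 0 to 4. For manual against in vivo (0 genes) DESeq2 gave 44, voom 1, the replicate block 1, leaving out the low-detection libraries 3, and leaving out 1 library 0 to 0. DESeq2 called ASNS beside CHAC1 in vitro and in automatic against in vivo. Deviations of libraries that share a replicate number correlated with r of 0.00137 to 0.380, and unlike numbers were not compared. Low detection followed the number in part: it fell on replicate 2 in every group and on replicate 4 in automatic and in vivo. Whether the numbers mark a pairing or shared handling is not given in the labels and was not tested.

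CHAC1 against in vivo moved to 12.20 in vitro, 12.43 in automatic and 11.98 in manual without in vivo 3, and to 10.52 in automatic with the covariate. DDIT3 moved to 3.02, 2.95 and 3.10 in the same order without the low-detection libraries. CEBPB reversed without in vivo 2 to 0.16, 0.10 and 0.21, and in manual to 0.22 without the low-detection libraries.

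For automatic over manual, reversed values stayed within the intervals of the report. DDIT3 was −0.0206 with the replicate block, −0.0823 with the covariate and −0.15 without the low-detection libraries. SESN2 was −0.75 with voom, −0.26 with the replicate block and −0.0940 without the low-detection libraries. PPP1R15A was 0.0804 with library size, 0.0013 with the covariate and 0.36 without the low-detection libraries. Leaving out 1 library gave −0.19 to 0.12 for ATF4, −0.13 to 0.34 for DDIT3, −0.54 to 0.41 for SESN2, −0.74 to 0.22 for CEBPB and −0.25 to 0.28 for PPP1R15A.

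Correlations with ATF4 in culture reversed without the low-detection libraries for ATF3 (0.763; adjusted permutation p = 0.251), SESN2 (−0.241) and PPP1R15A (−0.189). Leaving out 1 library, chosen after seeing the data, gave 0.329 to 0.587 for ASNS, 0.210 to 0.751 for CHAC1, 0.110 to 0.375 for DDIT3, 0.352 to 0.597 for TRIB3, −0.406 to 0.274 for SESN2, −0.309 to −0.046 for ATF3, −0.499 to 0.048 for CEBPB and −0.329 to 0.367 for PPP1R15A. The cause of these shifts was not tested. Low counts limit ATF5, EIF2AK2 and the in vivo values of CHAC1 and FGF21. TRIB3 had 411 counts in in vivo 3, 368 in in vivo 4 and 20 in in vivo 5. It had 0 in in vivo 2 and in in vivo 1, the library with the largest total.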

Other observations

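In lists next to the stress response, automatic and manual denudation gave lopsided counts. Of 20 genes of the ATF6 and XBP1 arms of the unfolded protein response, 2 were higher and 18 lower in automatic (median log2 fold change −0.50). Of 13 genes of the list of glutathione and other redox enzymes, 1 was higher and 12 lower (median −0.43). The all-gene median was −0.05. In edgeR, 0 of these 33 genes had an unadjusted p under 0.05 with all libraries. Without the low-detection libraries the counts were 2 higher and 18 lower, and 4 higher and 9 lower. In that fit 4 of the 33 genes were lower in automatic at an unadjusted p under 0.05, beside 4.08% of all genes in either direction, and 0 at an adjusted p. They were SDF2L1, CRELD2 and SEL1L of the endoplasmic reticulum and GPX4, a glutathione peroxidase, named after their values were seen. Genes of a list share libraries and are not independent, so no test is attached to the counts.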
